A study of Zea mays with 8 samples.

Results

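In maize leaves given SLB spores, 59 genes that were listed at 0 in all 4 control libraries reached at least 10 FPKM in all 4 treated libraries. FPKM divide the fragments of a gene by its transcript length and by the mapped fragments of the library, so they allow levels to be set side by side between genes of different length. The 59 genes were chosen from the 44135 identifiers of the deposited table by these levels. A further 30 genes met the same levels but were left out, because the gene with the identifier number just before or after had a log2 ratio of SLB mean to control mean, each plus 1 FPKM, of at least 3. Since the levels in both groups chose the genes, their difference between the groups is described here and not tested.

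The leaves came from Zea mays of the cultivar Golden Queen, which carried no transgene or mutation named in the labels. All plants were 14 d old, and the emerging leaf 4, not yet fully expanded, was taken 24 h after treatment. The SLB group was given a spore suspension, and the control group 0.1% Tween 20 in water, a mild detergent that wets the leaf surface, with 4 libraries in each. SLB is read here as southern leaf blight, which the fungus Cochliobolus heterostrophus causes in maize. The labels do not say whether each library came from 1 plant or from a pool.

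A plant cell that detects a fungus, through receptors for fungal molecules, switches on transcription factors that in turn raise genes for defence proteins and for enzymes of small antimicrobial compounds. In maize such compounds, called phytoalexins, include terpenoids that healthy leaves hold at very low levels, and the title of the study places it in the diterpenoid part of that defence. Genes with no transcript in a healthy leaf and a clear level after infection are one extreme of such an inducible response. The deposited identifiers are those of the B73 RefGen_v4 build, and the reference table used here matched 0 of 44135, so no gene name, product, protein or position is given. The genes are therefore called by their rank in mean SLB level, from 1 for the highest to 59 for the lowest. For the same reason the leaf identity of the samples could not be checked against marker genes.

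One library stands apart in what follows. SLB replicate 4 had the lowest summed FPKM of the SLB libraries, 706734, where the other 3 had 726865 to 755209, and the most genes above 0, 28071 against 24649 to 26563. These totals alone do not set it apart, since replicate 1 had the highest sum and replicate 3 the fewest genes above 0. In replicate 4 the genes most raised after SLB tended to lie below the other SLB libraries and genes lower after SLB above them, as given with the spread between replicates. The measures of spread and rank range are therefore also given without it. The groups also differ in scale, with summed FPKM of 706734 to 755209 in SLB libraries and 1415306 to 2118483 in controls, and median-ratio size factors of 1.30 to 1.43 and 0.678 to 0.891. These measures go in opposite directions, since the controls have the higher sums and the SLB libraries the higher size factors. Every log2 ratio below is of FPKM as deposited, with no correction for either. By the size factors, the log2 ratio of a typical gene lies above 0. Sequencing depth is unknown, so no counting error can be attached to any value.

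The highest of the 59 genes stood far above the rest. Rank 1, Zm00001d003190, was at 1685, 1681, 1264 and 1121 FPKM in SLB replicates 1 to 4 and at 0 in each control, with a mean of 1438 ± 289 FPKM (SD, n = 4). Its lowest SLB library lay above the highest library of every other gene of the group. It took rank 42 among all genes by mean SLB level, and ranks 37, 33, 42 and 48 in SLB replicates 1 to 4. It belongs to the group narrowly, since it would be left out with neighbours to a distance of 2 or with a neighbour log2 ratio of 2 as the limit. In bulk leaf RNA, more cells that express a gene and more RNA per cell cannot be told apart, for this gene and for the others.

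Rank 2, Zm00001d011032, was at 609, 668, 248 and 381 FPKM in SLB replicates 1 to 4, with a mean of 476 ± 196 FPKM (SD, n = 4). It was high in SLB replicates 1 and 2 and low in 3 and 4. The gene ranked 3 was at 444, 449, 526 and 284 FPKM, with replicate 4 lowest. The gene ranked 4 was at 308, 428, 232 and 369 FPKM, with replicate 3 lowest. The gene ranked 5 was at 413, 207, 294 and 216 FPKM, with replicate 1 highest. All of these values are far above the minimum of 10 FPKM in the rule, while the ranges of ranks 2 to 5 overlap, so their order is not resolved by 4 libraries.

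The gene ranked 6 had the widest spread of the 59. It was at 170, 197 and 118 FPKM in SLB replicates 1 to 3 and at 516 FPKM in replicate 4, which was 3.19 times the mean of the other 3. This went against the other genes, most of which were lowest in replicate 4. The gene ranked 7 showed that more common form, with 216, 166, 209 and 91.7 FPKM in SLB replicates 1 to 4. The gene ranked 8 was at 215, 125, 144 and 115 FPKM, with replicate 1 alone high. The gene ranked 9 was tight, at 135, 121, 105 and 127 FPKM, a coefficient of variation (SD as a percentage of the mean) of 10.7%. The gene ranked 10 was at 140, 112, 78.6 and 145 FPKM, with replicates 1 and 4 high.

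**Figure D1:**
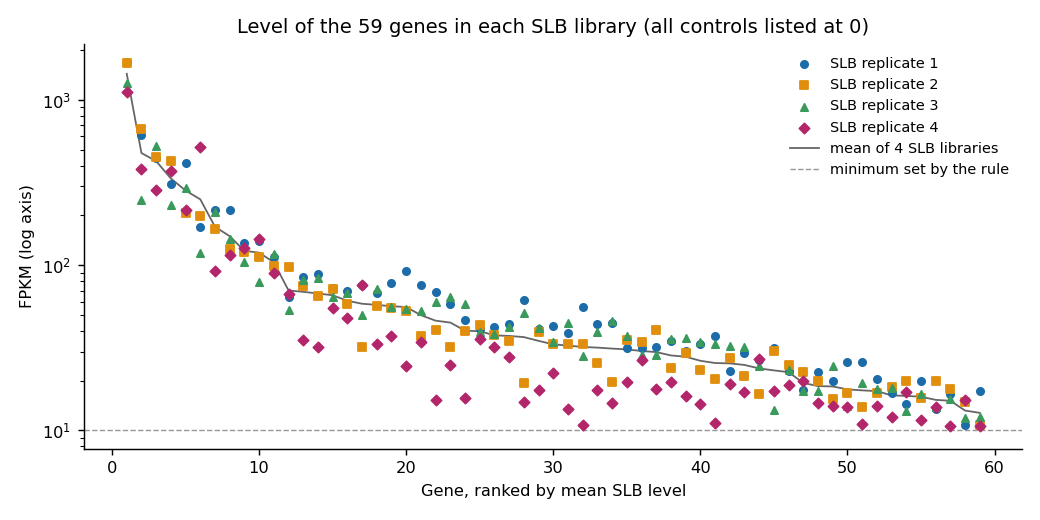
FPKM on a log axis of each of the 59 genes in the 4 SLB libraries, 1 point per library, with genes ordered by their mean (line) and the minimum of 10 FPKM dashed. The gene ranked 1 lies between 1121 and 1685 FPKM, most others lie under 100 FPKM, and SLB replicate 4 is the lowest point for 45 of the 59 genes.

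Most of the group sat at moderate levels after SLB. The means ran from 12.8 to 1438 FPKM, with a median of 33.2 and quartiles of 23.4 and 63.3 FPKM. Between 10 and 20 FPKM there were 13 genes, between 20 and 50 FPKM 26, between 50 and 100 FPKM 9, between 100 and 1000 FPKM 10, and above that 1. The gene ranked 1 held 26.2% of the summed mean level of the 59, the first 5 held 53.8%, and the 11 genes above 100 FPKM held 70.5%. Down the ranking of 59, only 3 of 58 successive steps in mean were larger than the larger SD of the neighbouring pair, and only 1, from rank 1 to rank 2, separated the libraries without overlap.

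The genes in the middle and at the end of the ranking show the same range of forms. The gene ranked 30, at the median, was at 42.9, 33.1, 34.4 and 22.1 FPKM in SLB replicates 1 to 4. The gene ranked 31 was at 39, 33.2, 44.7 and 13.5 FPKM. The gene ranked 32 was at 55.7, 33.2, 28.3 and 10.7 FPKM, the largest ratio of highest to lowest library in the group, 5.19. In each of these 3 genes replicate 4 was lowest. The gene ranked 57 was at 16.5, 17.7, 15.5 and 10.7 FPKM. The gene ranked 58 was at 10.8, 14.8, 11.8 and 15.4 FPKM, with replicate 4 highest. The gene ranked 59 was at 17.4, 10.8, 12.1 and 10.7 FPKM, so that the lowest ranks lie close to the minimum that the rule set.

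The level classes of the 59 were set beside those of all 8339 genes at 10 FPKM or more in all 4 SLB libraries, which met the same minimum. Of the 59, 22% were at 10 to 20 FPKM, against 30% of the 8339, and 44.1% against 39.4% were at 20 to 50 FPKM. From 100 to 1000 FPKM the shares were 16.9% and 13.8%. The median mean level was 33.2 FPKM for the 59 and 29.7 FPKM for the 8339. The 59 were thus found at every level class, as 0.52% of the genes at 10 to 20 FPKM, 0.791% at 20 to 50, 0.671% at 50 to 100 and 0.867% at 100 to 1000 FPKM. Before the neighbour part of the rule these shares were 0.64%, 1.22%, 1.27% and 1.3%. The class of 1000 FPKM or more held 1 of the 59 and 58 of the 8339 genes.

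**Figure D2:**
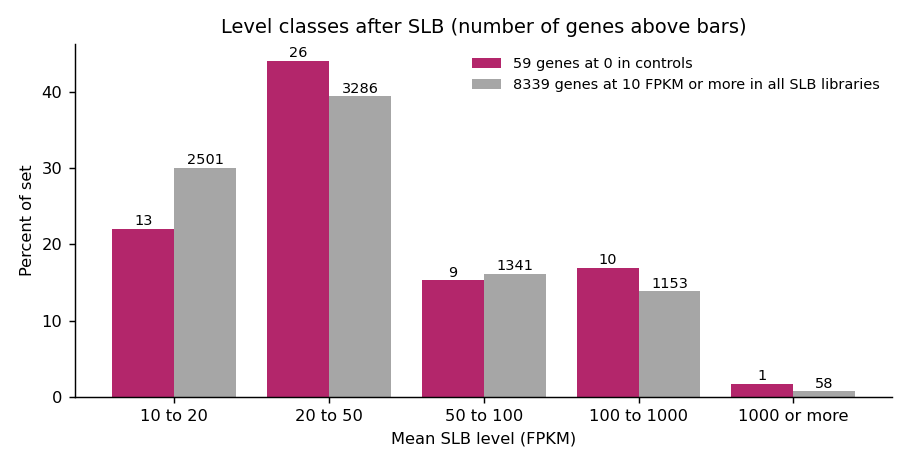
Percentage of each set in 5 classes of mean SLB level (FPKM), for the 59 genes at 0 in controls and for the 8339 genes at 10 FPKM or more in all SLB libraries, with numbers of genes above the bars. The class of 20 to 50 FPKM is the fullest in both sets, with 26 and 3286 genes.

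Among all genes of the SLB leaf, the 59 ranked from 42 to 8075 by mean SLB level, with a median rank of 3777. Of the 29777 genes above 0 in at least 1 SLB library, the median member stood at percentile 87.3, and the lowest at 72.9. The rule sets that floor, so only the order above it is informative. Among the 8339 genes that met the same minimum, the median member stood at percentile 54.8 with quartiles of 38.5 and 75.9, near the middle of that set. Of the 59, 1 was among the first 100 genes, 6 among the first 500, 9 among the first 1000 and 15 among the first 2000. Like counts over the 8339 genes are not given, so these counts are a description only.

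Ranks within a library do not depend on how libraries are scaled to each other, and they differed between the SLB libraries. The median rank of the 59 was 2986 in replicate 1, 3665 in replicate 2, 3253 in replicate 3 and 6020 in replicate 4. Among the first 5000 genes of a library stood 46, 40, 45 and 26 of the 59 in replicates 1 to 4. At the top the libraries differed less, with 10, 9, 7 and 8 of the 59 among the first 1000 genes. In every SLB library, 5 genes were among the first 1000 and 25 among the first 5000, while 49 were among the first 5000 in at least 1 library. These counts set the libraries side by side for the same 59 genes, and like counts over the 8339 are not given. The worst rank of a gene was a median of 1.97 times its best rank, against 1.26 times for the 8339. Without replicate 4 these ratios were 1.38 and 1.17. As a ratio of ranks the gene ranked 6 moved most, from rank 151 in replicate 4 to rank 1023 in replicate 3. In places it was the gene ranked 32, from rank 2306 in replicate 1 to rank 9111 in replicate 4.

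**Figure D3:**
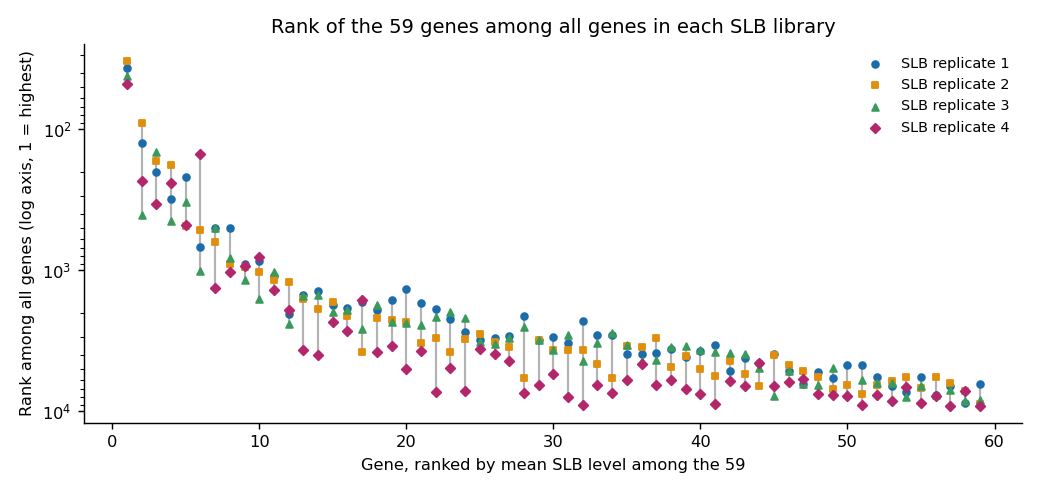
Rank among all genes (log axis, 1 is the highest) of each of the 59 genes in each SLB library, with a grey line from best to worst. The gene ranked 1 stays between ranks 33 and 48, and in the middle of the plot SLB replicate 4 lies furthest down, with a median rank of 6020.

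Together the 59 genes held 0.752% ± 0.0938 (SD, n = 4) of the summed FPKM of an SLB library. The share was 0.854% in replicate 1, 0.803% in replicate 2, 0.705% in replicate 3 and 0.646% in replicate 4. In each control the share was 0 by the rule. Without control replicate 1 the rule would admit 9 more genes, and the share would be 1.85%. One of the 9 had a mean of 6718 FPKM after SLB and 7.69 FPKM in control replicate 1 alone.

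The level of the 59 genes varied more between SLB replicates than that of most genes that met the same minimum. Their coefficient of variation over the 4 SLB libraries had a median of 27.7%, with quartiles of 19.9% and 37.9%, where the 8339 genes had a median of 12% and quartiles of 7.57% and 19.2%. Of the 59, 53 lay above the median of the 8339 and 45 above the upper quartile. The highest SLB library was at least 2 times the lowest for 25 of 59 genes, or 42.4%, against 7.83% of the 8339. Without replicate 4 this held for 7 of the 59, or 11.9%, against 2.89%. A single SLB library stood far from the other 3 in 2 of the 59 genes, ranks 29 and 56, against 6.09% of the 8339. The 59 genes are part of the 8339, and genes are not replicates of a condition, so these shares are a description.

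The wider spread was found in each of the 4 level classes below 1000 FPKM. The minimum in every library limits the spread that genes at 10 to 20 FPKM can show, for the 59 and the 8339 alike. At 10 to 20 FPKM the median coefficient of variation was 20.3% for the 59 against 11.2% for all genes of the class, and at 20 to 50 FPKM 32.4% against 12.2%. At 50 to 100 FPKM it was 30% against 12.1%, and at 100 to 1000 FPKM 27.8% against 13.1%. The only gene above 1000 FPKM, rank 1, was at 20.1%, close to the 19.3% of its class. It was at 15.7% against 11.8% without replicate 4. Without replicate 4 the medians of the 4 lower classes were 16.6%, 19.7%, 15.7% and 26.5% for the 59, against 9.09%, 9.48%, 9.3% and 9.34% for all genes of the class. After median-ratio scaling of the libraries the median over the 59 was 30.5%, and over the 8339 it was 12%.

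The spread differed widely within the group. A coefficient of variation under 15% was found in 9 of the 59 genes, or 15.3%, against 62.7% of the 8339, and one of at least 40% in 11 genes, or 18.6%, against 3.61%. Without replicate 4 the first count was 23, or 39%, against 75.2%, and the second 5, or 8.47%, against 1.71%. The tightest was the gene ranked 25, at 40.8, 43.2, 39.5 and 35.6 FPKM in SLB replicates 1 to 4, or 8%. The genes ranked 9 and 26 followed, at 10.7% and 11.1%. The gene ranked 26 was at 42.3, 37.7, 38.2 and 32.1 FPKM, so that its 4 libraries lay close together. The widest after the gene ranked 6, which was at 72%, was the gene ranked 28, at 61.3, 19.4, 51.3 and 14.8 FPKM, or 62.9%. That gene was high in replicates 1 and 3 and low in 2 and 4. Spearman's rho of spread and level was 0.21 across the 59 genes, which share the same 4 libraries. The minimum of 10 FPKM in every library limits the spread of genes with a mean near it. This value therefore depends in part on the rule, and no relation is read from it.

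Other genes that were listed at 0 in some but not all controls had a like spread. The 171 genes at 10 FPKM or more in all SLB libraries and at 0 in 1 to 3 controls had a median coefficient of variation of 27%, and the 30 genes left out for an induced neighbour 31.3%. Among genes above 0 in all 4 controls, the 674 with a log2 ratio of at least 3 had a median of 15.3%, the 3257 with a log2 ratio of 1 to 3 had 8.91%, and the 3019 with a log2 ratio between -1 and 1 had 12%. The 1129 genes with a log2 ratio of -1 or lower had 22.7%.

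**Figure D4:**
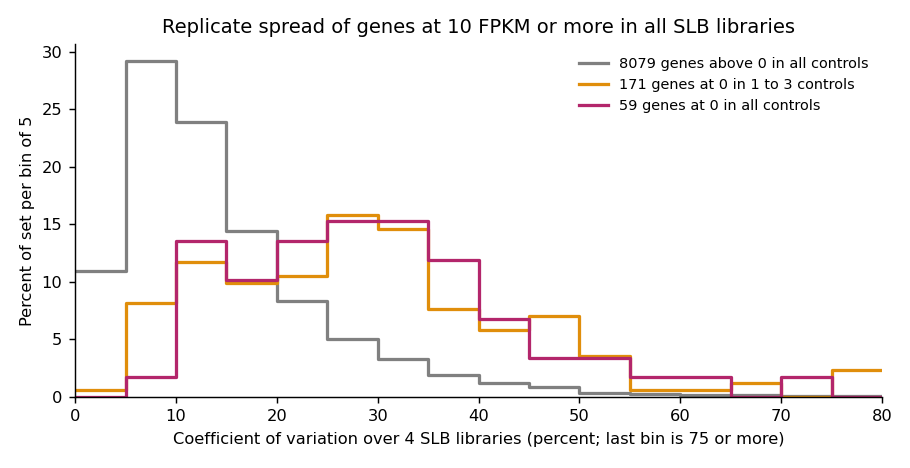
Percentage of genes per bin of 5 in coefficient of variation over the 4 SLB libraries, for the 59 genes at 0 in all controls, 171 genes at 0 in 1 to 3 controls and 8079 genes above 0 in all controls, all at 10 FPKM or more in all SLB libraries. The 30 genes left out for an induced neighbour, also at 0 in all controls, are not shown. The first 2 sets have medians of 27.7% and 27%, to the right of the third, at 11.7%.

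Much of the spread ran along 1 library. SLB replicate 4 was the lowest library for 45 of the 59 genes, or 76.3%, replicate 3 for 9, replicate 2 for 3 and replicate 1 for 2. Over the 8339 genes, replicates 3, 2 and 1 were lowest for 20.4%, 25.5% and 26.7%, and replicate 4 was lowest for 27.4%. The latter share depended on the scaling, since after median-ratio scaling replicate 4 was lowest for 47 of the 59 genes, or 79.7%, and for 42.6% of the 8339. Replicate 1 was highest for 28 of the 59 genes, replicate 3 for 15, replicate 2 for 12 and replicate 4 for 4. In percent this was 47.5%, 25.4%, 20.3% and 6.78%, against 20.5%, 24.7%, 16.2% and 38.6% of the 8339. Replicates 3 and 2 were thus near the share over all genes. The 4 genes highest in replicate 4 were those ranked 6, 10, 44 and 58. After median-ratio scaling replicate 4 was highest for 1 of the 59 and for 2149 of the 8339. The most frequent order, replicate 1 above 3 above 2 above 4, was shown by 19 of the 59 genes and 7.78% of the 8339, and the next, replicate 3 above 1 above 2 above 4, by 12 genes and 7.47%.

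The median gene of the 59 stood at 118% of its own SLB mean in replicate 1, 98.4% in replicate 2, 104% in replicate 3 and 74.7% in replicate 4. In 15 genes, or 25.4%, replicate 4 was at most 50% of the mean of the other 3, against 1.79% of the 8339. In 9 genes replicate 4 was at or above that mean, or 15.3%, against 54%. Without replicate 4 the median coefficient of variation of the same 59 genes was 19.3% and that of the 8339 was 9.31%, so the 59 were wider over the other 3 libraries as well. Without replicate 1, 2 or 3 it was 29.4%, 30.2% and 29.5%.

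The low position of replicate 4 was shared with other genes at 0 in some controls or raised the most after SLB. It was the lowest SLB library for 66.7% of the 171 genes at 0 in 1 to 3 controls, for 60% of the 30 genes left out for a neighbour and for 67.8% of the 674 genes above 0 in all controls with a log2 ratio of at least 3. In the 674 the median gene stood at 84.6% of its own SLB mean in replicate 4. It was much weaker in the 3257 genes with a log2 ratio of 1 to 3, where replicate 4 was lowest for 35.1% and highest for 22.4% and the median gene stood at 97.5% of its own SLB mean. After median-ratio scaling replicate 4 was lowest for 58.4% of these and for 80.9% of the 674. Genes lower after SLB showed the opposite. Of the 1129 genes with a log2 ratio of -1 or lower, 71.2% were highest in replicate 4, and the median gene stood at 124% of its SLB mean there. The 3019 genes with a log2 ratio between -1 and 1 went the same way more weakly. Replicate 4 was highest for 53.9% of them and lowest for 13.8%, with the median gene at 108% of its SLB mean there. After median-ratio scaling it was highest for 1099 of the 3019 and lowest for 764. The labels give no time, batch or dose that sets replicate 4 apart. What part the higher number of detected genes or the lower total of that library had in this was not tested.

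**Figure D5:**
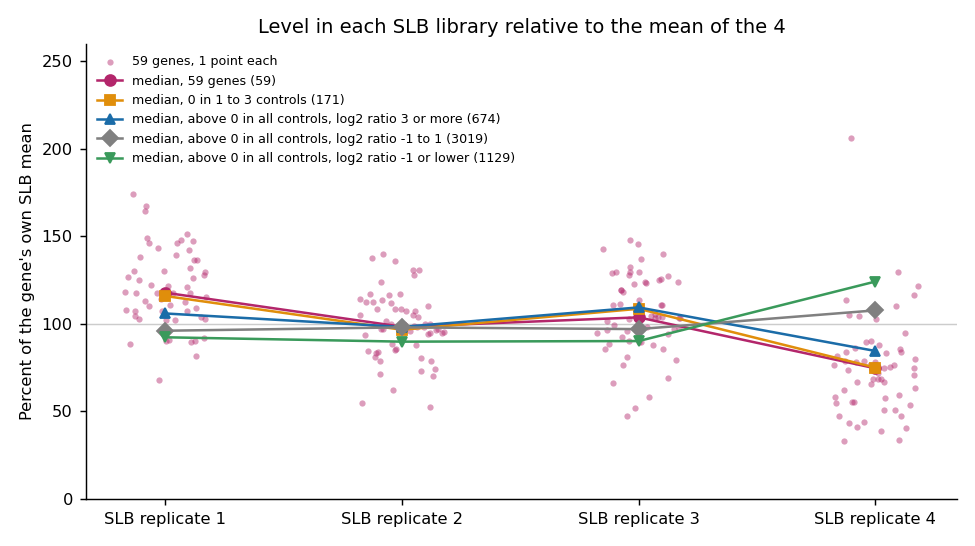
Level in each SLB library as a percentage of the gene's own mean over the 4, with 1 point per gene for the 59 genes and lines through the medians of the 59 and of 4 other sets at 10 FPKM or more in all SLB libraries. In replicate 4 the median is 74.7% for the 59 genes and 124% for the 1129 genes with a log2 ratio of -1 or lower.

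In the controls each of the 59 genes was listed at exactly 0, which a table of FPKM can also give for a failed estimate. Zeros were more frequent in controls, with 23052 to 24629 genes above 0 against 24649 to 28071 in SLB libraries. The highest single value was 63067 to 129370 FPKM in controls and 10288 to 17570 FPKM in SLB libraries. What part these differences had in the zeros of the 59 was not tested. Among the 8339 genes at 10 FPKM or more in all SLB libraries, 8079 were at 0 in no control, 65 in 1, 54 in 2, 52 in 3 and 89 in all 4, which is 1.07%. Being at 0 in all 4 controls was thus more frequent than each of the counts for 1, 2 or 3 controls taken alone. Together, 171 genes were at 0 in 1 to 3 controls. In the 52 genes at 0 in 3 controls, the 1 control value above 0 had a median of 0.51 FPKM with quartiles of 0.183 and 3.02, and it reached 12 FPKM. It stood in control replicate 1 for 13 genes, in replicate 2 for 12, in replicate 3 for 16 and in replicate 4 for 11, so no control supplied most of them. Values of 0 in 1 control beside at least 10 FPKM in the other 3 numbered 6, 12, 5 and 13 in control replicates 1 to 4. The like numbers in SLB replicates 1 to 4 were 0, 0, 2 and 0. Single zeros among expressed genes thus occur in this table, and more in controls than in SLB libraries. Whether any of the 59 was at 0 through a failed estimate was not tested.

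A control mean just above 0 was found in other genes. Of the 8339 genes, 6 had a control mean above 0 and up to 0.01 FPKM, 35 above that and up to 0.1 FPKM, and 248 above that and up to 1 FPKM. All 4 SLB libraries lay above all 4 controls in 28.9% of the 44135 rows and in 63.6% of the 8339 genes. After median-ratio scaling the latter share was 45.1%. All 59 did so by the rule, and nothing is read from that. No fold is given, since a ratio to 0 has no value. In the opposite direction, 3 genes were at 0 in all SLB libraries and at 10 FPKM or more in all controls.

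Some genes lay close to the thresholds. Those given here were picked for that closeness, so no likeness in level is read from them. The 3 genes just inside the minimum had a lowest SLB library of 10.7 FPKM each, with means of 12.8, 15.1 and 32 FPKM. The 3 just outside had a lowest library of 9.96, 9.65 and 9.45 FPKM, with means of 21.7, 17.8 and 12.6 FPKM. Closest outside the control condition was a gene with a mean of 106 FPKM after SLB and 0.008 FPKM in control replicate 4 alone. The next had 14.7 FPKM after SLB and 0.012 FPKM in control replicate 2, and the one after it 29.6 FPKM and 0.027 FPKM in control replicate 1.

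The identifier numbers of the 59 genes were spread over the table. The closest pair was 24 numbers apart and the median step was 521.5, so no neighbouring members remained after the rule. Whether numbers follow gene order along the chromosomes was not checked. Both neighbouring numbers were in the table for 38 of the 59 genes, 1 of 2 for 17 and none for 4, so for 21 genes the neighbour condition could be applied in part or not at all. Over all rows, 70.7% had both neighbouring numbers, 26% had 1 of 2 and 3.29% had none. Of the 93 neighbours present, 25 were at 0 in all 8 libraries, 60 had a log2 ratio between -1 and 1, 25 one of 1 to under 3, and 8 one of -1 or lower. The 25 silent neighbours are among the 60. Of all 44135 rows, 13397 were at 0 in all 8 libraries, so silent neighbours are not particular to the 59. Among the same 93 neighbours, 12 were themselves at 0 in all controls and above 0 in an SLB library. Like counts over all rows are not given for these 12 or for the classes of log2 ratio. These counts are therefore a description only, and no shared induction is read from them. The 30 genes left out ran from 13.7 to 411 FPKM in mean SLB level, with a median of 45.2 FPKM, and 13 of them had a neighbour that also went from 0 to at least 10 FPKM.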

How the data were processed

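The authors deposited 1 table of FPKM with 44135 gene identifiers and 1 column for each of 8 libraries, and 0 columns were left unused. The submitters' processing notes name Trimmomatic 0.32, a read trimmer, and the build B73 RefGen_v4. Libraries were stranded, per the labels' protocols. Neither aligner, quantifier and annotation nor further scaling is given in the sources used here, and depth is unknown. FPKM are relative to the other genes of the same library, and the levels and log2 ratios here use them without further scaling unless stated.

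Genes at exactly 0 FPKM in all 4 controls and at least 10 FPKM in all 4 SLB libraries were kept, unless the identifier number minus 1 or plus 1 had log2((SLB mean + 1)/(control mean + 1)) of at least 3. The rule, the genes and the comparison sets were chosen with earlier results of these data known. No test was run, since the rule uses the contrast. By a fixed rule, values by library are given for ranks 1 to 10, the 3 genes nearest the median, the 3 lowest, and the 3 with the lowest and highest spread, with 2 identifiers printed because the reference table (49888 entries, assembly Zm-B73-REFERENCE-NAM-5.0) annotated none. Classes of function and cell type markers could therefore not be counted. Median-ratio scaling divided each library by its median ratio to the geometric mean over genes above 0 in all 8 libraries. Alternatives were other limits, neighbour conditions and scalings, and leaving out each library. Python 3.11.15, pandas 2.3.3, numpy 2.4.6 and scipy 1.17.1 were used. Spreads are between libraries, which may be technical replicates.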

Additional observations from a re-analysis of the deposited data

Results flagged for a closer look

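In 2 of 63 sets of 4 SLB values checked (the 59 genes and 4 summaries of them by library), 1 library stood far from the other 3 relative to their whole range (Dixon's 95% limit), where chance gives about 1 in 20. The gene ranked 29 was at 17.6 FPKM in SLB replicate 4 and between 39.2 and 41.5 FPKM in the other SLB libraries. The gene ranked 56 was at 19.97 FPKM in SLB replicate 2 and between 13.5 and 13.8 FPKM in the others. The same was found for 6.09% of all 8339 genes at 10 FPKM or more in the SLB libraries, so the 2 genes do not stand out in number.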

How the results depend on the processing

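The counts by spread and rank without SLB replicate 4, and the shares after median-ratio scaling in the report, were added after the data were seen. No paired analysis was possible because the results come from no test. The number of genes, 59 in the report, stayed within 1.5 times under 16 of 20 settings. It was 98 with a minimum of 5 FPKM, 27 with 20 FPKM, 196 with controls at most 1 FPKM and 89 with no neighbour exclusion. Median-ratio scaling gave 49 genes, 45 of them among the 59, and equal totals gave 84, of which 50 were. Leaving out 1 library gave 59 to 74 genes, the most without SLB replicate 4. The median level was 20.5 FPKM with a minimum of 5 and 67.3 FPKM with 20, and 30.4 to 37.3 FPKM leaving out 1 library. The median coefficient of variation was 33.3% with a mean of at least 10 FPKM in place of every library and 20.3% with controls at most 1 FPKM. Leaving out 1 library it was 19% to 30.3%, the lowest without SLB replicate 4 and all others at 26.6% or more. The share of summed FPKM was 0.644% with a minimum of 20 FPKM, 0.932% and 1.85% with controls at most 0.1 and 1 FPKM, 1.05% with no neighbour exclusion and 0.89% with a neighbour log2 ratio of 4. It was 0.49% with neighbours to a distance of 2, 0.486% with a neighbour log2 ratio of 2, 0.511% with a neighbour pseudocount of 0.1 and 0.548% with equal totals. In these 4 settings the gene ranked 1 was not kept. Leaving out 1 library the share was 0.722% to 1.85%. The median percentile was 80.7 with a minimum of 5 FPKM, 93.7 with 20 FPKM and 80.7 with equal totals, and 86.1 to 88.5 leaving out 1 library. Against genes at 1 FPKM or more in all SLB libraries it was 78.6, and against all rows 91.4.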
